A study of Mus musculus with 10 samples.

Results

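The absorptive colonocyte genes described here are 32 protein-coding mouse genes for salt, water and nutrient transport, for acid-base balance, for the brush border and for the surface of mature colon epithelial cells. They were taken by gene name from a table of 56748 genes, of which 21970 were protein coding, and all 32 names were found. The values are FPKM, fragments scaled to gene length and to a factor per library, so that levels of different genes can be set beside each other per length. With a mean over all libraries of at least 0.5 FPKM, 27 of the 32 genes were tested. The other 5 were Atp12a, Aqp8, Slc5a8, Car4 and Espn.

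Mouse colon organoids, epithelial cultures grown from crypt cells, were treated with WY-14643, a synthetic agonist of the nuclear receptor PPARα, or with vehicle. The WY-14643 group held 5 libraries (replicates 6 to 10) of organoids given 100 µM for 2 days, beginning 3 days after passage, and the vehicle group held 5 libraries (replicates 1 to 5) on the same schedule. The labels name no genotype, strain, age, animal, organoid line or day, so whether libraries of a group are separate animals or technical repeats is not known. In the fit without pairs, p-values measure the spread among libraries of a group. In the fit with libraries matched in pairs, explained below, they measure the spread of the differences within pairs. The labels describe no group without the receptor, and the organoids hold epithelium without the bacteria, blood supply and stroma of the colon.

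Colonocytes are born near the crypt base, leave the cell cycle as they move up and take on absorptive functions near the surface. There, sodium/proton and chloride/bicarbonate exchangers work side by side to absorb salt, carbonic anhydrases supply their protons and bicarbonate, and water follows the salt. Guanylin peptides act on a receptor guanylate cyclase of the same epithelium to shift it towards secretion, and the brush border, a carpet of actin-filled microvilli, carries the transporters, enzymes and transmembrane mucins.

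Libraries of the groups went together in matched pairs. Deviations from the group means over all tested genes correlated by 0.423 to 0.782 between WY-14643 replicate 6 and vehicle replicate 1, replicates 7 and 2, 8 and 3, 9 and 4, and 10 and 5, and by at most 0.0602 between all other libraries of different groups. Over the 27 tested absorptive genes alone the matched correlations were 0.857 to 0.955 and the highest unmatched one was 0.208. These correlations run across genes, which are not independent replicates. The labels state no pairs, so 2 fits are given: limma on log2(FPKM + 1) without pairs, and the same with pair as a block, called the matched fit, both adjusted by Benjamini-Hochberg over 13607 genes. Pairs 1 to 5 are named here by the vehicle replicate. Reads per library were 16136440 to 22209003 in WY-14643 and 15618244 to 29271304 in vehicle libraries.

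No absorptive colonocyte gene passed the test for a difference between WY-14643 and vehicle. Without pairs, limma called 0 of the 27 tested genes, and 0% of all genes, in either direction. The matched fit also called 0 of the 27, against 0.287% of all genes called higher and 0.0294% called lower. At an unadjusted p under 0.05, 6 of the 27 were higher and 2 lower in the matched fit (5.48% and 5.09% of all genes), and 1 was higher and 0 lower without pairs (1.01% and 0.492%). The mean was higher after WY-14643 for 17 of the 27 and lower for 10, against 47.1% of all genes with a higher mean. The median log2 fold change was 0.052 over the 27 genes and -0.0061 over all genes tested. The WY-14643 and vehicle libraries overlapped in each of the 27, whereas 0.243% of all genes had every WY-14643 library above and 0.11% below every vehicle library. These are bulk libraries, in which fewer cells of a type and less RNA per cell cannot be told apart.

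A fit of the recovered read counts by limma's voom with the pairs kept, added after the data were seen, called 1 of the 27 genes higher (Phgr1) and 2 lower (Aqp4 and Clca4b). It called 1.4% of all genes higher and 0.36% lower. Library quality weights, without pairs, called 0 of the 27 and 0.154% of all genes. Their values are given with their groups.

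**Figure D1:**
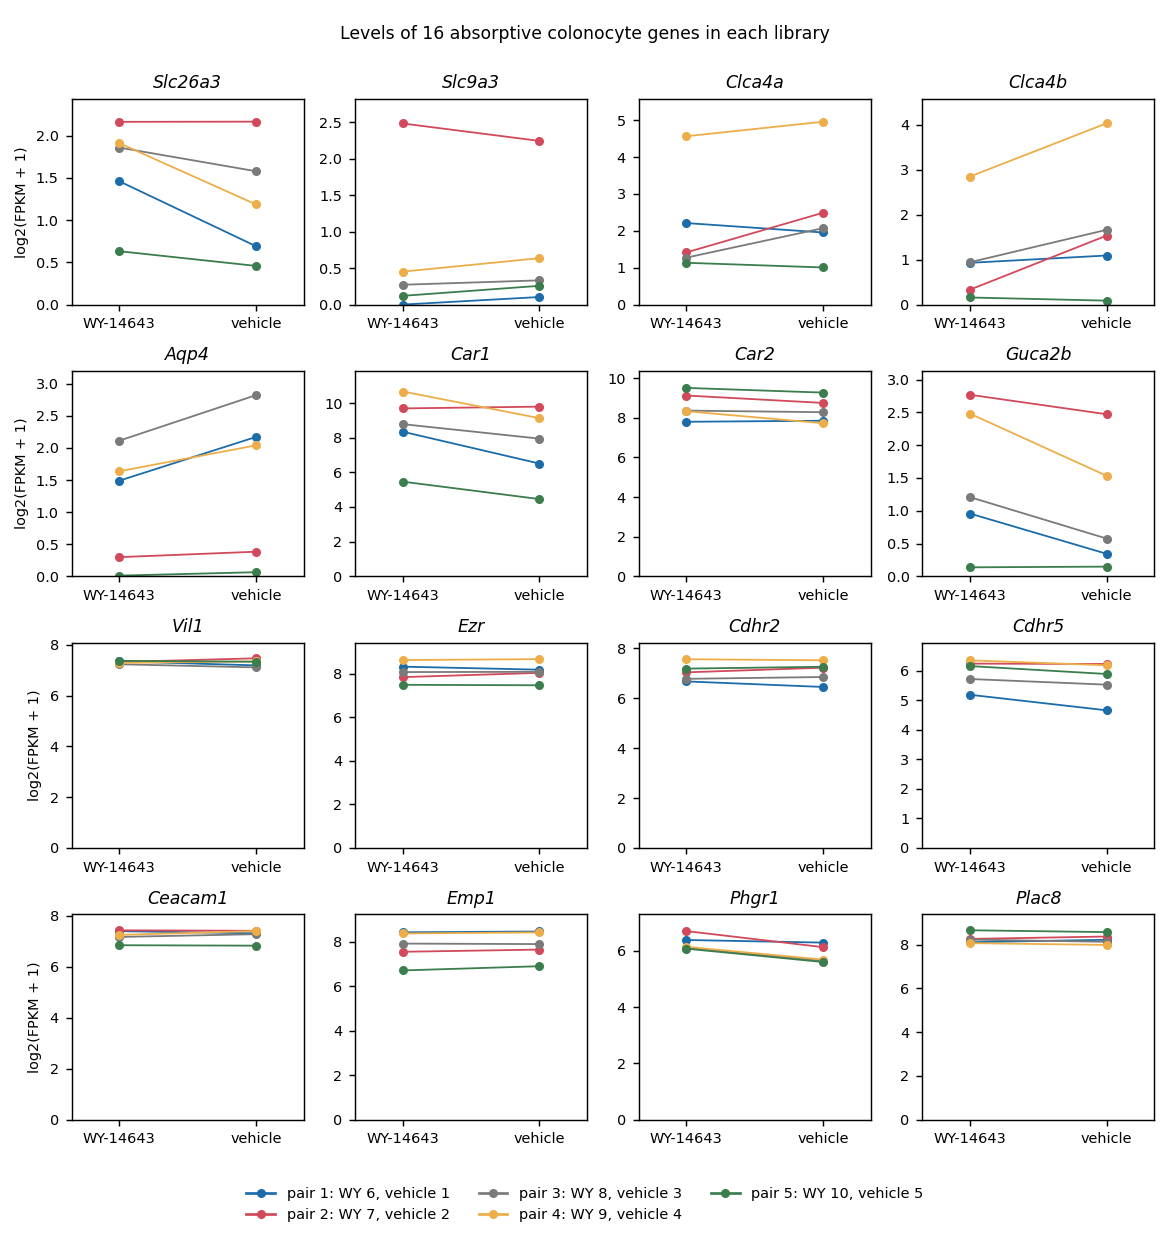
Level of 16 absorptive colonocyte genes as log2(FPKM + 1), vertical axis, in WY-14643 libraries (left) and vehicle libraries (right) of each panel. Points are libraries and lines join the libraries of a matched pair. For most of these genes the lines of different pairs lie farther apart than the ends of a line, and Phgr1 is among the exceptions.

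Of the exchangers that absorb salt, Slc26a3, the chloride/bicarbonate exchanger of the colon surface, stood at 1.75, 3.48, 2.63, 2.76 and 0.549 FPKM in WY-14643 replicates 6 to 10, against 0.615, 3.49, 1.99, 1.27 and 0.373 FPKM in vehicle replicates 1 to 5. The WY-14643 library was the higher one in 4 of 5 pairs, with the ranges of the groups overlapping almost in full. The log2 fold change was 0.39 ± 0.13 (matched SE, limma, 5 pairs, adjusted p = 0.344). Slc9a3, a sodium/proton exchanger of the brush border also known as NHE3, was at 0, 4.58, 0.207, 0.367 and 0.0863 FPKM in WY-14643 libraries, against 0.0743, 3.73, 0.258, 0.553 and 0.195 FPKM in vehicle libraries. A single matched pair, WY-14643 replicate 7 and vehicle replicate 2, held most of its RNA in both groups, and 3 reads would give 0.0343 FPKM in the WY-14643 library listed at 0. Slc9a2, the related exchanger NHE2, ranged from 0.829 to 10.3 FPKM in WY-14643 libraries and from 1.11 to 7.82 FPKM in vehicle libraries. Its pattern was another one, with pair 1 highest and pair 5 lowest. Atp12a, the catalytic subunit of a potassium-absorbing proton pump of the distal colon, had 0 to 11 reads in any library and was not tested.

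Clca4a and Clca4b, neighbouring genes of a family that regulates calcium-activated chloride channels, lie on chromosome 3 of build mm39 at 144658241 to 144680806 and at 144616682 to 144638290, both on the minus strand. Clca4a was at 3.63, 1.67, 1.42, 22.7 and 1.19 FPKM in WY-14643 replicates 6 to 10, against 2.88, 4.62, 3.20, 30.1 and 1.01 FPKM in vehicle replicates 1 to 5. Clca4b was at 0.904, 0.258, 0.920, 6.205 and 0.115 FPKM in WY-14643 libraries, against 1.13, 1.90, 2.17, 15.4 and 0.0622 FPKM in vehicle libraries. Both genes were highest in pair 4 and lowest in pair 5, and Clca4b was lower after WY-14643 in 4 of 5 pairs. The log2 fold change of Clca4a was -0.38 ± 0.21 (matched SE, limma, adjusted p = 0.579). For Clca4b it was -0.64 ± 0.21 in the matched fit (limma, adjusted p = 0.344) and -1.28 in the matched voom fit of the reads, where it passed (adjusted p = 0.0101). In the fit without pairs, omitting vehicle replicate 4 and keeping its matched partner brought Clca4b to -0.052. Within pairs 1 to 5 Clca4b differed by -0.16, -1.20, -0.72, -1.18 and 0.070 on the log2 scale. The sequences of Clca4a and Clca4b are much alike and how reads with several matches were counted is not given in the sources used here, so the split of reads between them is uncertain.

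Of the water channels, the set holds Aqp4 and Aqp8. Aqp4 was at 1.81, 0.229, 3.33, 2.11 and 0.00693 FPKM in WY-14643 replicates 6 to 10, against 3.51, 0.304, 6.08, 3.11 and 0.0449 FPKM in vehicle replicates 1 to 5. It was lower after WY-14643 in 5 of 5 pairs, as were 6.09% of all genes, and it was the only one of the 27 genes with that order. Its lowest and highest WY-14643 libraries differed 480.5-fold, and the lowest rests on 1 read. The log2 fold change was -0.39 ± 0.12 in the matched fit (limma, adjusted p = 0.317) and -0.79 in the matched voom fit (adjusted p = 0.00184). Without pairs, omitting vehicle replicate 3 brought it to -0.055 and omitting vehicle replicate 5 to -0.74, neither past the threshold. Each omission kept the matched partner in the fit. Within pairs 1 to 5 Aqp4 differed by -0.68, -0.085, -0.71, -0.40 and -0.053 on the log2 scale. Aqp8, the water channel that marks surface colonocytes, stayed at 0.0797 to 0.746 FPKM in WY-14643 and 0.0590 to 0.762 FPKM in vehicle libraries, with at most 21 reads, and was not tested. Aqp1, a water channel of a comparison list of epithelial transport genes and not one of the 32 genes, averaged 23.0 ± 38.8 FPKM in WY-14643 and 19.0 ± 27.3 FPKM in vehicle libraries and did not pass (limma, matched fit, adjusted p = 0.929).

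Both transporters of nutrients were low in these organoids. Slc6a14, a carrier of neutral and basic amino acids, was at 0.376 to 2.07 FPKM in WY-14643 and at 0.516 to 2.52 FPKM in vehicle libraries, with the highest value of each group in pair 1 (log2 fold change -0.19 ± 0.096, limma, matched SE, adjusted p = 0.537). Slc5a8, the sodium-coupled carrier of butyrate and other short-chain fatty acids, had 3 to 26 reads per library. Its levels of 0.0316 to 0.211 FPKM in WY-14643 and 0.0595 to 0.142 FPKM in vehicle libraries lay below the limit for a test.

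Carbonic anhydrases, which interconvert carbon dioxide and bicarbonate, included the most abundant gene of the set and a gene without a read. Car1, a cytosolic form typical of colon epithelium, was at 324, 827, 439, 1626 and 43.1 FPKM in WY-14643 replicates 6 to 10, against 89.97, 887, 246, 559 and 21.0 FPKM in vehicle replicates 1 to 5. WY-14643 libraries were higher in 4 of 5 pairs, with differences of 1.84, -0.10, 0.84, 1.54 and 1.005 on the log2 scale in pairs 1 to 5. The groups averaged 652 ± 613 FPKM in WY-14643 and 360.4 ± 359.8 FPKM in vehicle libraries (SD, n = 5 each). The log2 fold change of 1.02 was the largest of the 27 genes and did not pass (limma, SE 1.13 without pairs, and SE 0.27 and adjusted p = 0.240 in the matched fit). In the fit without pairs, omitting vehicle replicate 5 gave 0.25, and omitting WY-14643 replicate 10 gave 1.81, neither past the threshold. Each omission kept the matched partner in the fit.

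Car2, the other abundant cytosolic form, was at 222, 557, 328, 321 and 727 FPKM in WY-14643 libraries, against 229.8, 429, 310.1, 210.4 and 617 FPKM in vehicle libraries. It lies 77904 bases from Car1 on chromosome 3, and its order of libraries was a different one. Pair 5 was lowest for Car1 and highest for Car2, so that the level of Car1 relative to Car2 was 0.0593 in WY-14643 replicate 10 and 5.07 in WY-14643 replicate 9, against 0.0340 in vehicle replicate 5 and 2.66 in vehicle replicate 4. The log2 fold change of Car2 was 0.25 ± 0.095 (matched SE, limma, adjusted p = 0.416). Car4, the membrane-anchored form on the luminal side of mature colonocytes, had 0 reads in all 10 libraries, where 3 reads would have given 0.0525 to 0.0968 FPKM.

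The guanylin peptides Guca2a (guanylin) and Guca2b (uroguanylin) are encoded 17135 bases apart on chromosome 4. Guca2b was at 0.941, 5.82, 1.31, 4.58 and 0.0993 FPKM in WY-14643 replicates 6 to 10, against 0.269, 4.55, 0.490, 1.90 and 0.107 FPKM in vehicle replicates 1 to 5. The WY-14643 library was higher in 4 of 5 pairs and almost level in pair 5, and the log2 fold change was 0.50 ± 0.14 (matched SE, limma, adjusted p = 0.252). Guca2a ranged from 0.872 to 12.0 FPKM in WY-14643 and from 1.18 to 14.7 FPKM in vehicle libraries (log2 fold change 0.43 ± 0.25, adjusted p = 0.607). Averaged over the groups, both peptides were highest in pair 2 and lowest in pair 5.

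Their receptor Gucy2c, a guanylate cyclase that is not among the 32 genes, was the 1 gene called among 28 other genes of epithelial transport that were listed for comparison, 18 of them tested. It was at 19.4, 50.1, 28.8, 26.0 and 31.8 FPKM in WY-14643 replicates 6 to 10, against 13.9, 40.3, 23.7, 19.3 and 25.6 FPKM in vehicle replicates 1 to 5. The WY-14643 library was higher in 5 of 5 pairs, as were 5.63% of all genes, while the ranges of the groups overlapped. Gucy2c rose in the matched fit, by 0.35 ± 0.044 on the log2 scale (SE, limma, adjusted p = 0.0428), and was not called without pairs (adjusted p = 0.999991). Leaving out any single pair ended the call (adjusted p = 0.0648 to 0.171), as did testing with no filter on low values (0.191).

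Of the other 27 genes of that comparison list, 0 were called in the matched fit in either direction. The matched voom fit called 4 of the 18 tested higher and 0 lower. Beside Gucy2c these were the drug efflux pump gene Abcb1a, at 57.6 ± 23.0 FPKM in WY-14643 and 34.9 ± 15.1 FPKM in vehicle libraries, the monocarboxylate carrier gene Slc16a1 and the sulfate carrier gene Slc26a2. The subunits of the epithelial sodium channel Scnn1b and Scnn1g were below the limit for a test.

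Of the 6 brush border genes, 5 were abundant enough to be tested, and none passed. Vil1, villin, which bundles the actin of microvilli, was at 162, 159, 149.6, 156 and 164 FPKM in WY-14643 replicates 6 to 10, against 145, 176, 137, 162 and 160.4 FPKM in vehicle replicates 1 to 5. Ezr, ezrin, which ties actin to the membrane, was at 321, 229.6, 269.8, 396 and 179 FPKM in WY-14643 libraries, against 291, 263, 272, 408 and 177 FPKM in vehicle libraries. Vil1 was the steadiest of the set, with a highest library 1.10 times the lowest in WY-14643 and 1.28 times in vehicle, whereas Ezr followed the pairs and was highest in pair 4 and lowest in pair 5. Their log2 fold changes were 0.023 ± 0.056 and -0.017 ± 0.056 (matched SE, limma, adjusted p = 0.918 and 0.939).

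Microvilli are held to each other by a complex of the protocadherins Cdhr2 and Cdhr5 on the scaffold protein harmonin, the product of Ush1c. Cdhr2 was at 101, 131, 109, 188 and 145 FPKM in WY-14643 replicates 6 to 10, against 86.6, 149, 115, 183 and 153 FPKM in vehicle replicates 1 to 5. Cdhr5 was at 35.4, 74.6, 51.6, 80.6 and 70.3 FPKM in WY-14643 libraries, against 24.3, 73.8, 45.1, 71.6 and 58.2 FPKM in vehicle libraries. By the mean of a pair both were highest in pair 4 and lowest in pair 1, and Cdhr5 stood higher after WY-14643 in 5 of 5 pairs (log2 fold change 0.23 ± 0.072, matched SE, limma, adjusted p = 0.309), which Cdhr2 did in 2 of 5 (-0.014 ± 0.064, adjusted p = 0.962). Ush1c, at 21.6 to 50.4 FPKM in WY-14643 and 17.8 to 60.8 FPKM in vehicle libraries, was also lowest in pair 1. Espn, an actin-bundling protein, had at most 43 reads in a library and was not tested. Among 19 further brush border genes, 18 of them tested, 0 were called in either fit, and the matched voom fit called Baiap2l1 higher, at 34.8 ± 3.59 FPKM in WY-14643 and 30.1 ± 2.49 FPKM in vehicle libraries, and 0 lower.

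**Figure D2:**
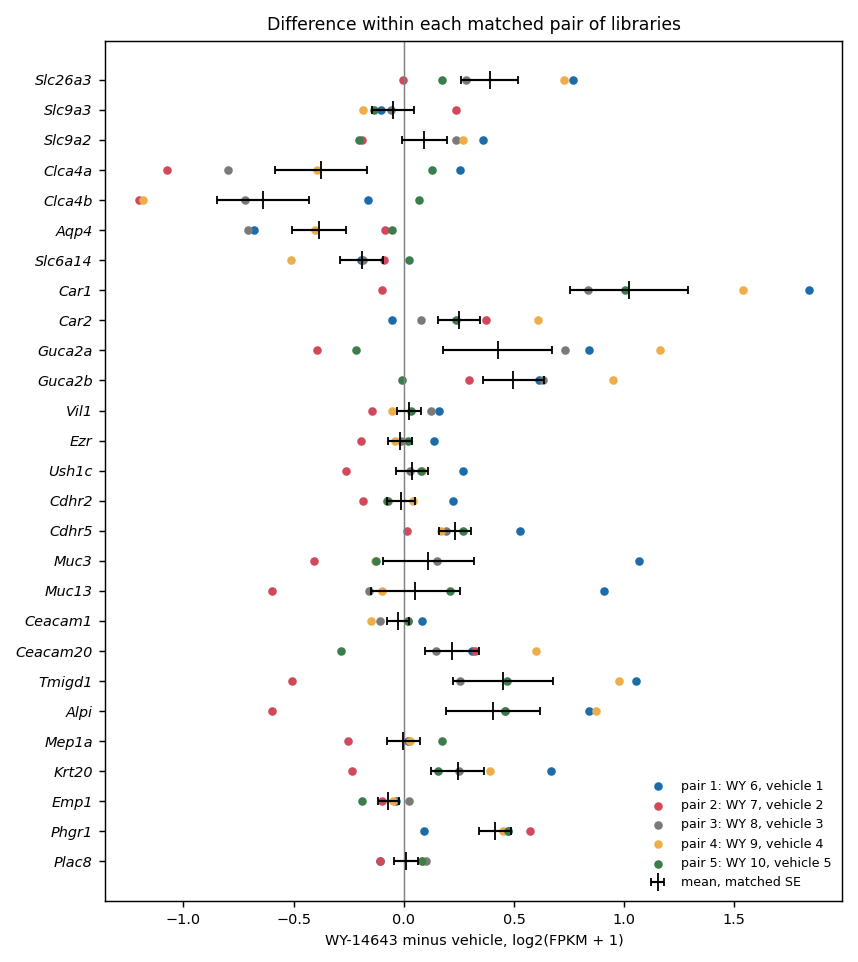
Difference between the WY-14643 and the vehicle library of each matched pair in log2(FPKM + 1), horizontal axis, for the 27 tested genes. Coloured points are pairs, and the black mark and bar are the mean and the standard error of the matched fit. Phgr1 and Cdhr5 have 5 points to the right of 0 and Aqp4 has 5 to the left, whereas genes such as Muc13 and Alpi have points on both sides.

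None of the 5 surface glycoproteins passed in either fit of limma. Ceacam1, an adhesion molecule of the carcinoembryonic antigen family, was at 167, 171, 142, 151 and 114 FPKM in WY-14643 replicates 6 to 10, against 157, 169, 154, 167 and 112 FPKM in vehicle replicates 1 to 5. Pair 5 was its lowest pair, and the other 4 pairs lay close together (log2 fold change -0.028 ± 0.049, matched SE, limma, adjusted p = 0.886). Muc13, a transmembrane mucin, ranged from 2.94 to 34.8 FPKM in WY-14643 and from 2.41 to 49.7 FPKM in vehicle libraries. Its differences within pairs went both ways, by 0.91 in pair 1 and -0.60 in pair 2 (log2 fold change 0.052 ± 0.20, adjusted p = 0.952). Muc3, another transmembrane mucin, had a like pattern, with 1.07 in pair 1 and -0.41 in pair 2. Ceacam20, at 0.523 to 6.62 FPKM in WY-14643 and 0.688 to 5.10 FPKM in vehicle libraries, and Tmigd1, an adhesion molecule of enterocytes, at 3.50 to 8.31 FPKM in WY-14643 and 1.29 to 9.54 FPKM in vehicle libraries, were both highest in pair 2 by the mean of its libraries.

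Digestive enzymes of the cell surface varied widely between pairs. Alpi, the intestinal alkaline phosphatase, ranged from 2.67 to 49.5 FPKM in WY-14643 and from 1.05 to 26.6 FPKM in vehicle libraries. It was highest in pair 4 and lowest in pair 1 of both groups, and the WY-14643 library was higher in 4 of 5 pairs (log2 fold change 0.41 ± 0.21, matched SE, limma, adjusted p = 0.559). In the fit without pairs its sign turned when 1 library was omitted, to -0.14 (vehicle replicate 1) or -0.11 (WY-14643 replicate 9). Mep1a, a subunit of the metalloprotease meprin, ranged from 0.785 to 7.72 FPKM in WY-14643 and from 0.762 to 9.396 FPKM in vehicle libraries, and its log2 fold change was -0.0017 ± 0.074 (adjusted p = 0.997).

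In both limma fits on log2(FPKM + 1), Phgr1 had the smallest p of the 27 genes, while in matched voom that was Aqp4. It encodes a short protein rich in proline, histidine and glycine that is made in gut epithelium, and it lies on chromosome 2 of build mm39 at 118603250 to 118608646. Phgr1 was at 82.9, 103, 68.4, 69.8 and 66.7 FPKM in WY-14643 replicates 6 to 10, against 77.6, 69.3, 49.0, 50.8 and 47.7 FPKM in vehicle replicates 1 to 5. The WY-14643 library was higher in 5 of 5 pairs, while 3 of the 5 WY-14643 libraries lay below the highest vehicle library, so that the groups overlapped. They averaged 78.3 ± 15.5 FPKM in WY-14643 and 58.9 ± 13.7 FPKM in vehicle libraries (SD, n = 5 each).

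The log2 fold change of Phgr1 was 0.41, with an SE of 0.17 and an unadjusted p of 0.0368 without pairs, and an SE of 0.072 and an adjusted p of 0.0863 in the matched fit of limma. An exact two-sided permutation test over the 10 libraries gave p = 0.0714, where the smallest p for 5 against 5 libraries is 0.00794. Differences within pairs 1 to 5 were 0.093, 0.57, 0.47, 0.45 and 0.47 on the log2 scale. Phgr1 passed in the matched fit without pair 1 (adjusted p = 0.0302) and in the matched voom fit (adjusted p = 0.00974). Without any other single pair its adjusted p was 0.220 to 0.297.

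The other 3 surface-cell genes did not pass in any of these fits. Emp1, a membrane protein with multiple spans, was at 343, 186, 241, 330.5 and 104 FPKM in WY-14643 replicates 6 to 10, against 352, 199.5, 237, 342 and 118 FPKM in vehicle replicates 1 to 5. Plac8, a small cysteine-rich protein, was at 276, 307, 300.1, 268 and 404 FPKM in WY-14643 libraries, against 299, 331, 279.8, 254 and 381 FPKM in vehicle libraries. Pair 5 was the lowest for Emp1 and the highest for Plac8. Krt20, a keratin of cells at the surface, ranged from 6.92 to 169 FPKM in WY-14643 and from 6.12 to 129 FPKM in vehicle libraries and, like Emp1, was lowest in pair 5. The log2 fold changes were -0.070 ± 0.046 for Emp1, 0.0094 ± 0.053 for Plac8 and 0.24 ± 0.12 for Krt20 (matched SE, limma, adjusted p = 0.651, 0.969 and 0.531).

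Absorptive genes differed strongly between matched pairs, as did other lists of epithelial genes. Of the sum of squares of a gene over the 10 libraries, the matched pair took a median of 94.1% for the 27 genes and 83.6% for all genes tested, and treatment took 1.99% and 2.27%. The median for the pair was 97.7% over 16 genes of cycling cells and 92.2% over 6 fetal-like genes. It was lower in the other lists, at 89.0% over 8 goblet cell genes, 87.6% over 12 stem cell genes and 87.5% over 15 transcription factors. Over the 18 further brush border genes it was 86.6%, and over the 18 other transport genes 86.0%. The pair took over 90% for 20 of the 27 genes and for 33.6% of all genes. Its share was largest for Mep1a (99.3%), Emp1 (99.3%) and Slc9a3 (99.2%) and smallest for Phgr1 (55.4%), Vil1 (63.9%) and Tmigd1 (67.3%). Treatment took 38.5% of the spread of Phgr1. These shares are a description of 10 libraries whose pairs were chosen from the same values, and no test was made of the difference from other genes.

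**Figure D3:**
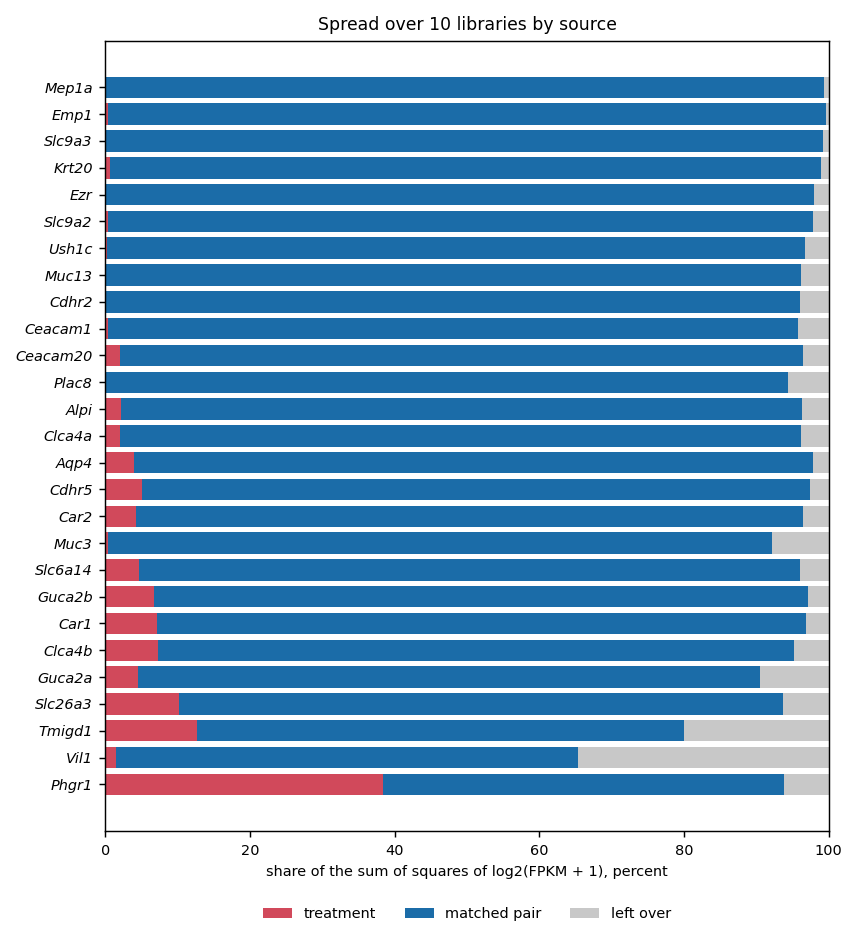
Share of the sum of squares of log2(FPKM + 1) over the 10 libraries, in percent on the horizontal axis, that goes with treatment, with matched pair or with neither, for the 27 tested genes. The part for matched pair is over 90% for 20 genes, and the part for treatment is largest for Phgr1 at 38.5%.

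Within a group the highest library stood a median of 8.09 times above the lowest in WY-14643 and 7.42 times in vehicle over the 27 genes. Over the 12016 genes with a mean of at least 1 FPKM these medians were 1.54 in WY-14643 and 1.64 in vehicle libraries. The ratio was over 5 for 15 of the 27 genes in WY-14643 and for 16 in vehicle libraries, against 6.23% and 7.27% of those 12016 genes. It reached 480.5 for Aqp4 in WY-14643 and 247 for Clca4b in vehicle libraries, both resting on few reads in the lowest library. With more reads behind them, Car1 (at least 561 reads) had ratios of 37.7 in WY-14643 and 42.3 in vehicle, and Krt20 (at least 253 reads) had 24.4 in WY-14643 and 21.1 in vehicle libraries. Ratios over 5 also occurred among the comparison genes, so a wide spread was not particular to the absorptive set. In WY-14643 and vehicle libraries they were 92.7 and 75.2 for Aqp1, 10.2 and 9.37 for the goblet cell gene Muc2, and 5.87 and 9.10 for the cycling cell gene Mki67. Other goblet cell genes had 29.2 and 10.6 (Zg16), 13.3 and 12.2 (Clca1) and 314 and 53.5 (Tff3, with 1 read in its lowest library). Sytl2 had 5.44 and 4.53, whereas Agr2 (4.06 and 1.96) and Fcgbp (2.36 and 1.94) were below 5 in both groups. Other comparison genes stayed below 5, such as Hnf4a at 1.68 and 2.17 and Pls1 at 1.25 and 1.36.

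**Figure D4:**
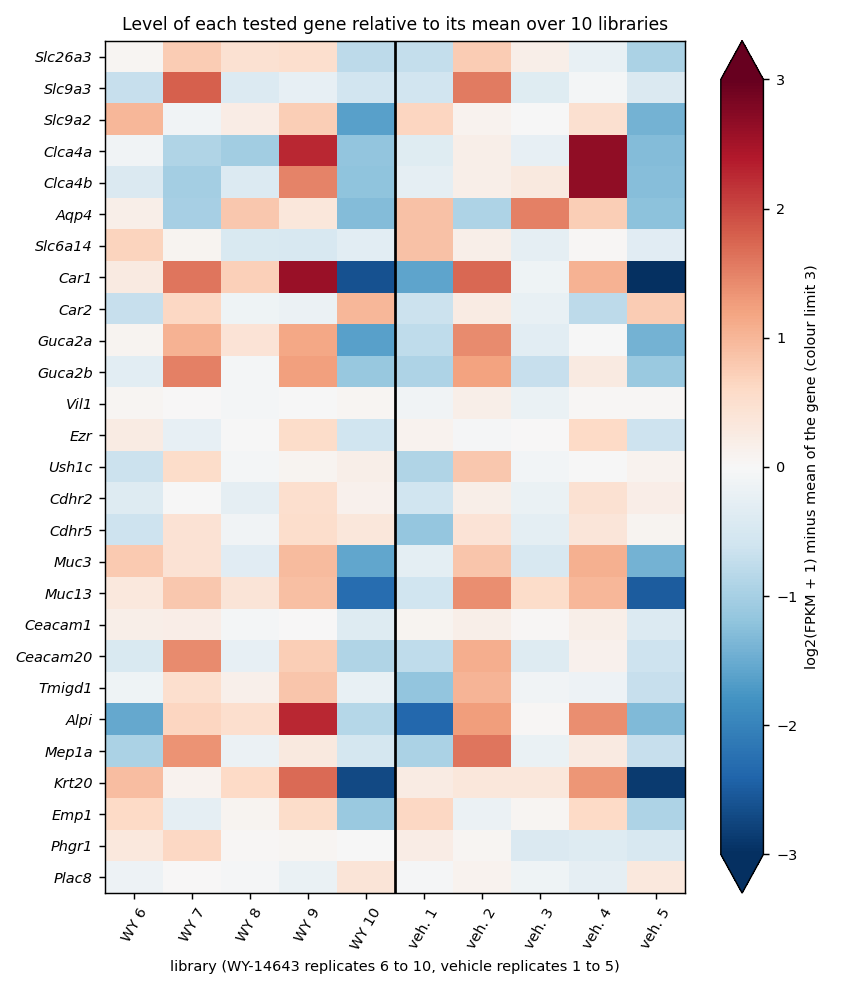
Level of each of the 27 tested genes in each library as log2(FPKM + 1) minus the mean of the gene over the 10 libraries, with WY-14643 libraries left of the black line and vehicle libraries right of it. Red is above and blue below the mean of the gene, with the colour limit at 3. The pattern across WY-14643 replicates 6 to 10 returns across vehicle replicates 1 to 5, with Car1, Muc13 and Krt20 low in the last library of both groups.

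The pairs ordered the genes in several ways. The library with the highest value belonged to the same pair in both groups for 20 of the 27 genes, and the library with the lowest value for 23, against 58.3% of all genes in each case. In the same order the counts were 12 and 16 of 16 cycling genes and 14 and 13 of 18 further brush border genes. They were 9 and 9 of 12 stem cell, 4 and 5 of 6 fetal-like and 2 and 6 of 8 goblet cell genes. They were 7 and 10 of 15 transcription factors and 11 and 10 of 18 other transport genes. The pairs were chosen from the same libraries, so part of this agreement is built in. By the mean of a pair, pair 2 was highest for 12 of the 27 genes (19.5% of all genes), among them both guanylins, Slc26a3, Slc9a3, Mep1a and Phgr1. Pair 4 was highest for 9 (23.9% of all genes), namely Clca4a, Clca4b, Car1, Ezr, Cdhr2, Cdhr5, Muc3, Alpi and Krt20. Pair 5 was lowest for 16 (22.9% of all genes), and pair 1 was lowest for 8 (26.4% of all genes), including Alpi, Mep1a, Ush1c, Cdhr2 and Cdhr5. Pair 2 was lowest for 0 of the 27, against 18.5% of all genes. Car2 and Plac8 were highest in pair 5 (22% of all genes), Aqp4 was highest in pair 3 (8.47%), and Slc6a14 and Vil1 were lowest there (7.97%).

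Genes of other cells of the epithelium moved with these pairs as well. Over 16 genes of cycling cells the mean log2 level was 3.02 in WY-14643 replicate 9 and 2.71 in vehicle replicate 4, matched pair 4. It was 4.38 to 5.08 in the other WY-14643 libraries and 4.09 to 5.17 in the other vehicle libraries. Of the tested absorptive genes, 9 were highest on average in pair 4, among them Krt20, Alpi and Car1. Plac8 was lowest in pair 4, and 12 absorptive genes were highest in pair 2. The absorptive list was lowest in pair 5, where cycling genes stood at 4.63 in WY-14643 and 4.87 in vehicle. Both values were below those of pair 1. Mki67, a marker of dividing cells, was at 13.0 FPKM in WY-14643 replicate 9 and 9.12 FPKM in its vehicle partner. The highest libraries of the groups had 76.1 FPKM in WY-14643 and 83.0 FPKM in vehicle. Over 6 genes of the fetal-like state of regenerating epithelium, among them Ly6a at 671 ± 143 FPKM in WY-14643 and 639.9 ± 148 FPKM in vehicle libraries, the mean level was highest in pair 1, at 7.84 in WY-14643 and 7.96 in vehicle, and lowest in pair 2, at 6.86 in WY-14643 and 6.98 in vehicle. The part of these states in the levels of the absorptive genes was not tested.

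**Figure D5:**
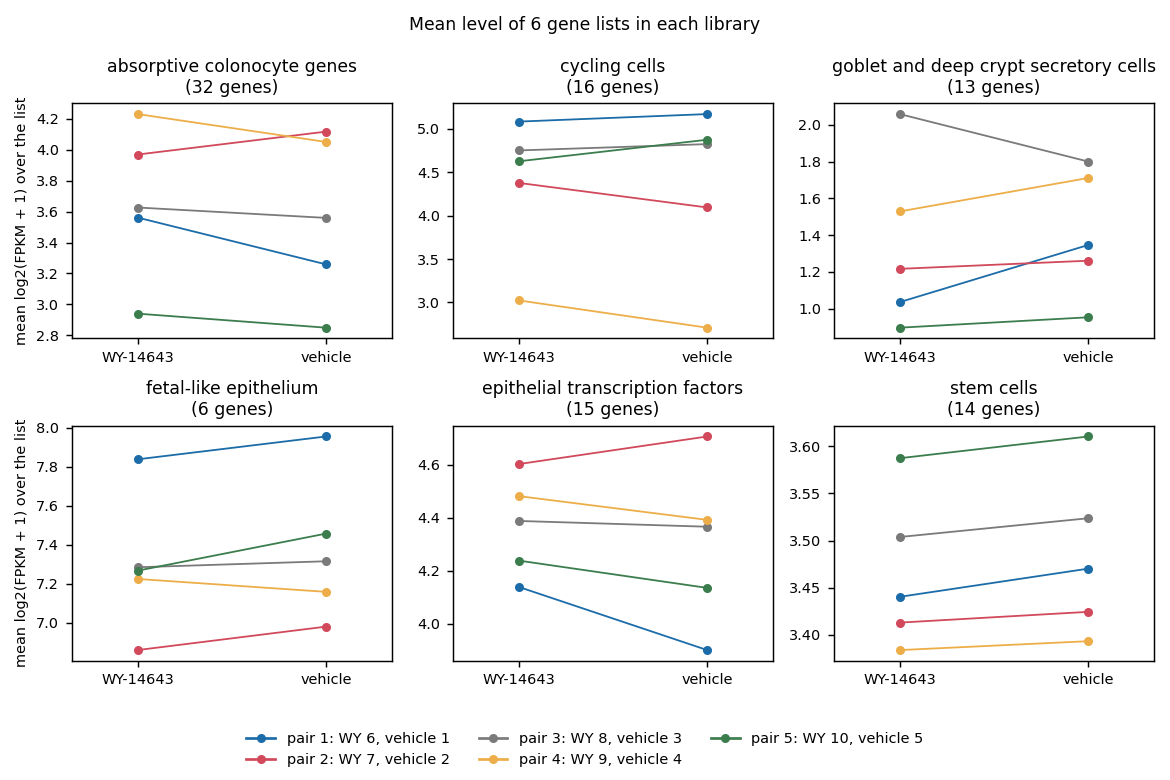
Mean log2(FPKM + 1) over the genes of 6 lists, vertical axis, in WY-14643 libraries (left) and vehicle libraries (right) of each panel, with lines joining matched pairs. Vertical axes differ between panels and do not start at 0. Cycling cells are lowest in pair 4, at 3.02 in WY-14643 and 2.71 in vehicle, and the absorptive list is lowest in pair 5, at 2.94 in WY-14643 and 2.85 in vehicle.

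Genes of other cell types were not called in either fit. Limma called 0 of 16 cycling, 0 of 12 tested stem cell, 0 of 8 tested goblet cell and 0 of 6 fetal-like genes, with and without pairs. Of these, the matched voom fit called only Lgr5, a stem cell gene, lower, at 3.79 ± 0.554 FPKM in WY-14643 and 4.79 ± 0.852 FPKM in vehicle libraries. Of 15 transcription factors of gut epithelium, among them Cdx2, Hnf4a and Klf4, 0 were called in these 3 fits. Summed over the list, 12 enteroendocrine markers reached 0.0158 to 2.08 FPKM in WY-14643 and 0.0376 to 2.47 FPKM in vehicle libraries, with Insl5 and Sst at 0. The 10 tuft cell markers reached 0.207 to 0.554 FPKM in WY-14643 and 0.203 to 0.485 FPKM in vehicle libraries, with Il25 and Rgs13 at 0, and 7 mesenchymal markers reached 0.0608 to 0.313 FPKM in WY-14643 and 0.0842 to 0.215 FPKM in vehicle libraries, with Dcn at 0. Of 6 immune and endothelial markers Cd3e and Adgre1 were at 0 and only Cd68 was at or above 0.5 FPKM, at 3.56 ± 1.66 FPKM in WY-14643 and 3.93 ± 1.25 FPKM in vehicle libraries.

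Promoters were read for 26 of the 32 genes (32 promoters) from RefSeq in build GRCm38.p6, each 250 bases before to 50 after the annotated start. Motifs were searched on both strands, and were chosen with the levels already known. DR1 is the direct repeat with 1 base between its repeats that PPARα binds with its partner RXR. Only its exact consensus, with no mismatch allowed in either repeat, was searched. This form was in 0 of the 26 genes and in 0.0396% of 32851 mouse promoters. A form this rare would seldom be met in 32 promoters. Its absence therefore says nothing about other forms of DR1 or about sites outside the window. The nuclear receptor motifs CAAAGTCCA, as bound by Hnf4a, and CAAAGGTCA were in Alpi and Muc13 (0.475% of all promoters) and in Slc26a3 (0.478%). CAAAGGTCA is contained in some forms of DR1. TTTATNG, a form of the site of caudal-type homeobox proteins such as Cdx2, was in 8 genes (10.9% of all promoters), and TATAAA, the TATA box, in 6 (13.6%). These motifs can overlap each other, as they do in Alpi and Krt20.

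The 4 promoters printed here are those of Phgr1, the gene with the smallest p of the set in the limma fits on log2(FPKM + 1), and of Alpi, Krt20 and Muc13, 3 genes with large differences between pairs. Capitals mark the motifs found, written 5′ to 3′ on the strand of the gene. Phgr1 (chr2:118772524-118772823, plus strand) holds none of the 5 motifs in this window. In Alpi (chr1:87101557-87101856, minus strand) TTTATNG begins 33 and CAAAGTCCA 19 bases before the start, both on the strand printed, and TATAAA, read on the other strand, begins at the same base as TTTATNG. In Krt20 (chr11:99438104-99438403, minus strand) TATAAA begins 29 bases before the start on the strand printed, and TTTATNG, read on the other strand, begins 30 bases before it. In Muc13 (chr16:33794239-33794538, plus strand) CAAAGTCCA, read on the other strand, begins 186 bases before the start, positions being those of the first base as printed.
Phgr1: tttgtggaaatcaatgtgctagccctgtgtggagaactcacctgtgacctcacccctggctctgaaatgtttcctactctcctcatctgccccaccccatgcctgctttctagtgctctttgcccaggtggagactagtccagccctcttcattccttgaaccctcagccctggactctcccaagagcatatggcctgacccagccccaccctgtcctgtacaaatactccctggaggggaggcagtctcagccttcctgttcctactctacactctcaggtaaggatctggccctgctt
Alpi: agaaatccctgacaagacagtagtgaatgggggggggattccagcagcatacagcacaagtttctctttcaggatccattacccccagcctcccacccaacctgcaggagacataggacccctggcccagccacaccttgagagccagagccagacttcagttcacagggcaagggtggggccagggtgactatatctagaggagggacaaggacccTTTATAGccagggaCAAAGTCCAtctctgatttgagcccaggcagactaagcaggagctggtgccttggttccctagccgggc
Krt20: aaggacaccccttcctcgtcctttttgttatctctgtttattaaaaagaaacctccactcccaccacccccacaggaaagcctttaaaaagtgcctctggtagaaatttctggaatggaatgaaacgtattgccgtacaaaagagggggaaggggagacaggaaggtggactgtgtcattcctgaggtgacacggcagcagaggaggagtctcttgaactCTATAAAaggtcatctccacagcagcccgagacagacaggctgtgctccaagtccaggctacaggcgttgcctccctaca
Muc13: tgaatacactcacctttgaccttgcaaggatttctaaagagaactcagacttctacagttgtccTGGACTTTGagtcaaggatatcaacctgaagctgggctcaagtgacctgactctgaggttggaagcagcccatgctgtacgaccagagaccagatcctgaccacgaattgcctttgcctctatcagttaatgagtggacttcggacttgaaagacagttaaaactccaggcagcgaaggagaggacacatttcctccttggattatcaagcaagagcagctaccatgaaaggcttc
Alpi and Krt20 were both highest in pair 4, and differed in their lowest pair, pair 1 for Alpi and pair 5 for Krt20. Muc13, which shares CAAAGTCCA with Alpi, was highest in pair 2 and lowest in pair 5. A match of letters is a description of the sequence and says nothing of binding in these organoids.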

How the data were processed

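RNA of 10 mouse colon organoid libraries was analysed from 1 table with a column per library. The authors deposited FPKM. The submitters' processing notes name the aligner HISAT2 2.0.5, the counter featureCounts 1.5.0-p3 and build mm39. Not given in the sources used here were the annotation release, the strand setting, the handling of multiple matches and the scaling of libraries. Without the strand setting, reads of overlapping and antisense genes cannot be told apart. Over genes with a value above 0 in every library, the median ratio to the geometric mean of the libraries was 1.00863 in each of the 10 libraries. The deposited FPKM thus already had a common median ratio. FPKM times gene length gave whole reads in 100% of values (tolerance 0.01), 15618244 to 29271304 per library, used for depth and voom. Counting error sets only part of the spread.

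Groups follow the treatment label and replicates the library names. Genes averaging 0.5 FPKM or more (24.0% of the table) were tested by limma 3.58.1 in R 4.3.3 on log2(FPKM + 1), which understates changes of low genes, with eBayes (trend, robust), Benjamini-Hochberg adjustment and a threshold of 0.05. The fit was tested on simulated data in which only genes above a minimum of reads were changed, so that test does not bear on genes with few reads. The simulation took the matched pairs as given and set the spread within pairs beforehand. It therefore cannot test the pairing or that spread, and no conclusion is drawn from it. The matched fit adds pair as a block. Replicate numbers are not shared between groups, so the pairing comes from the data: of 120 assignments of libraries the one in numerical order had the highest mean correlation (0.653). Alternatives were other pseudocounts, filters and scalings, voom, library quality weights and leaving out libraries or pairs.

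Values in every library are given for the 8 genes with the smallest matched p, the 8 with the highest mean and the 6 with the largest ratio of highest to lowest library, 16 in all. Of each list of other genes, those called are named, and others were chosen after their values were seen. The members and all lists and tests were chosen with earlier results of these data known. Plots were made in Python 3.11.15 with matplotlib 3.10.9.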

Additional observations from a re-analysis of the deposited data

Results flagged for a closer look

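Among 54 groups of 5 libraries (27 genes in WY-14643 and vehicle), 5 held a library that stood apart on the scale of log2(FPKM + 1). Its gap to the nearest library, as a share of the range of the group, was above Dixon's critical value for that size. Gaps on the scale of FPKM would differ. Chance gives about 1 in 20 such groups, and the groups are not independent, since matched libraries deviate together. Slc9a3 was apart in both groups of the same pair, with a gap of 0.818 of the range for WY-14643 replicate 7 and of 0.7513 for vehicle replicate 2, both high. Muc13 was apart in WY-14643 replicate 10, which was low (gap 0.815). Ceacam1 and Krt20 were apart in vehicle replicate 5, the partner of that library, which was low in both genes (gaps 0.7732 and 0.7458). With the pairs kept, the adjusted p of these 4 genes was 0.895 for Slc9a3, 0.952 for Muc13, 0.886 for Ceacam1 and 0.531 for Krt20 (limma).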

How the results depend on the processing

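Over 27 alternatives (23 listed with the design and 4 added after the data were seen), 645 of 726 log2 fold changes of absorptive genes kept their direction and their side of the threshold. A further 4, for Phgr1, Aqp4 and Clca4b, passed as given in the report, and 77 values of 18 genes turned their sign, none of them past the threshold. The cause was not tested.

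The replicate block, that is the matched fit, called 39 genes higher and 4 lower, where the fit without pairs called 0, and library quality weights called 18 higher and 3 lower, with 0 absorptive genes among them. Within the matched fit, voom called 190 genes higher and 49 lower, including 1 absorptive gene higher and 2 lower, and no filter on low values called 2 higher and 0 lower. Mep1a turned to 0.024 with a pseudocount of 0.1 and to 0.0058 with equal read totals, each with or without the replicate block, and to 0.073 with quality weights. Muc13 turned to -0.059 with quality weights and to -0.041 in matched voom, Slc9a3 to 0.038 and 0.073 under the same settings, and Plac8 to -0.00095 with quantile normalization. No scaling moved the median of all genes by more than 0.1, in values that already had a common median ratio across libraries.

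Leaving out a library gave 0 to 2 genes higher without pairs, and a median log2 fold change of the absorptive genes of -0.036 to 0.33, the highest without vehicle replicate 2 and the next, 0.22, without vehicle replicate 4. Leaving out a pair gave 2 to 30 genes higher, 0 to 6 lower and 0 to 1 absorptive genes higher. Leaving out a single library kept its matched partner in the fit, so differences between pairs enter the ranges that follow. Cdhr5, for example, has a range that crosses 0 although it was higher after WY-14643 in 5 of 5 pairs. Over both kinds of omission the log2 fold change was -0.14 to 0.84 for Alpi, -0.74 to -0.055 for Aqp4, -0.17 to 0.10 for Cdhr2, -0.026 to 0.42 for Cdhr5, -0.13 to 0.066 for Ceacam1, -0.11 to 0.52 for Ceacam20, -0.99 to 0.24 for Clca4a, -0.31 to 0.20 for Emp1, -0.17 to 0.13 for Ezr, -0.44 to 0.95 for Krt20, -0.34 to 0.40 for Mep1a, -0.56 to 0.63 for Muc13, -0.23 to 0.51 for Muc3, -0.088 to 0.089 for Plac8, -0.39 to 0.0032 for Slc6a14, -0.25 to 0.51 for Slc9a2, -0.50 to 0.33 for Slc9a3, -0.18 to 0.24 for Ush1c and -0.022 to 0.067 for Vil1. Depth limits Clca4b, Aqp4, Guca2b and Slc9a3, with 0 to 4 reads in their lowest libraries.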
